A study of Arabidopsis thaliana with 43 samples.

Results

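The 39 genes described here encode the core and linker histones of Arabidopsis thaliana leaves. They were chosen by locus identifier from the 33602 loci counted in each library. They comprise 8 genes for H4, 5 for the H3 variant H3.1, 3 for H3.3, 4 for canonical H2A, 3 for H2A.W, 2 for H2A.X, 3 for H2A.Z, 8 for H2B and 3 for the linker histone H1. All 39 were among the 20980 loci that passed the filter on low counts. Genes are called by the symbol that the RefSeq annotation of TAIR10.1 gives them and otherwise by class and locus. H2A is represented by RAT5, HTA2, HTA10 and HTA13, H2A.W by HTA6, HTA7 and HTA12, H2A.X by GAMMA-H2AX and H2AXA, and H2A.Z by HTA8, HTA9 and HTA11.

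Polyadenylated RNA was sequenced from leaves of wild-type Col-0 seedlings carried through a slow heat acclimation, a sudden heat shock, or both. Each time point was 1 plate of about 80 seedlings in each of 2 batches, whose leaf tissue was split between 2 tubes. Tubes were summed, so n = 2 plates per time point, and p-values measure only the spread between these plates. T2, T3 and T4 were taken on day 12 of growth, 3 h into a 6 h ramp (38 °C), at its end (45 °C), and after a further 90 min at 45 °C. T5 and T6 were acclimated plants 2 and 4 days later, on days 14 and 16, back at 22 °C. T7 was acclimated plants at the end of a 90 min shock at 45 °C on day 16, and T8 acclimated plants 2 days after it, on day 18 at 22 °C. T10 and T11 were the matching samples of plants that had never been acclimated. T7 and T10 were taken 9 h after lights on, and T4, T5, T6, T8, T9 and T11 at 7.5 h. The unheated samples were T9, taken on day 16 at 22 °C before the shock and at the same hour as T4 to T6, and T1, taken at dawn on day 12 at 22 °C. All seedlings were wild type, and no unheated sample shared both day and hour with T4.

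Counts assigned to genes ran from 6355953 to 21304864 per library, with a median of 9532451. Levels are given as TMM-CPM, CPM after edgeR's TMM scaling, always with the batch 1 plate before the batch 2 plate. A gene passed, and only then rose or fell, where edgeR's quasi-likelihood test over all 20980 loci gave a Benjamini-Hochberg adjusted p under 0.05. Errors of log2 changes are approximate standard errors, taken as the size of the change over the square root of that test's F statistic. HSP101, a heat-induced disaggregase, had 42520 and 44210 TMM-CPM at T4, against 5.86 and 7.54 TMM-CPM at T9. The leaf label was checked against 5 photosynthesis genes, whose summed level was between 4064 and 142300 TMM-CPM in the 22 plates. The summed level of 6 root markers was at most 28.2 TMM-CPM and that of 6 shoot apex markers at most 58.5 TMM-CPM. Of the apex markers, the stem cell genes WUS and CLV3 had no count in 16 and 12 of the 22 plates. STM, CLV1, KNAT1 and KNAT2 were counted in every plate, CLV1 at up to 35.8 and KNAT1 at up to 19.2 TMM-CPM.

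DNA is wound around a core of H2A, H2B, H3 and H4, and H1 binds the linker DNA at its entry and exit. H4, canonical H2A and H2B, and H3.1 are made mostly while DNA is copied, and the chaperone CAF-1 deposits H3.1 behind the replication fork. H3.3 is made throughout the cell cycle and is placed at transcribed genes by the HIRA complex. H2A.Z marks nucleosomes near transcription starts and is exchanged by the SWR1 complex, H2A.W is the heterochromatin variant of plants, and H2A.X is phosphorylated at DNA breaks.

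Within H4, H3.1 and H3.3 the genes encode 1 identical protein each, of 103 residues for H4 and 136 residues for both H3 types. The RNA of these genes can therefore be told apart while their products within a type cannot. H3.1 and H3.3 proteins were identical at 97.1% of positions. The codon for residue 31, counted with the start codon as 0 in the usual histone numbering, is one of the places where they differ, and it separates the 5 genes of one type from the 3 of the other. The sequences below are 21 bases of coding strand, TAIR10.1, with that codon in capitals, an alanine codon in the H3.1 genes and a threonine codon in the H3.3 genes.
H3.1 AT1G09200: tctgctccgGCCaccggagga
H3.1 AT3G27360: tcagctccaGCCaccggagga
H3.1 AT5G10390: tctgctccgGCCaccggagga
H3.1 AT5G10400: tcagctccaGCCaccggagga
H3.1 AT5G65360: tcagctccgGCGaccggagga
H3.3 AT4G40030: tctgcaccaACTactggtgga
H3.3 AT4G40040: tctgcaccaACCactggagga
H3.3 AT5G10980: tcagcaccaACCaccggagga

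The other classes were less uniform. The 8 H2B proteins all differed and shared 79.7% to 97.3% of positions, the 3 H2A.W proteins 71.9% to 74.7%, and the 3 H1 proteins 26.6% to 59.4%. Similarity of the transcripts matters for the counts, since reads that fit several genes may be lost or split. Stretches of 50 bases shared with another gene made up 28.5% of the transcript in H4 AT1G07660, 27.9% in AT3G46320, 25.7% in AT3G45930 and 19.4% in AT1G07820, and at most 8.48% in the other histone genes. The share of reads aligned to more than 1 place also differed between batches, at 3.75% to 24.2% in batch 1 and 13.3% to 44.2% in batch 2. Levels of these 4 H4 genes are uncertain for this reason. HTA13, HTA12, GAMMA-H2AX, HTA9, HTB9 and the H1 genes AT1G06760 and AT2G30620 overlap an annotated gene on the opposite strand, and H3.1 AT3G27360 overlaps one on its own strand. No source used here states whether counting was by strand, so their reads may include those of the neighbour.

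Promoters, taken as 250 bases before and 50 after the annotated start, were searched on both strands for motifs known from plant histone genes. The octamer CGCGGATC was found in 10 of the 39 histone promoters and in 33 of all 20126 promoters searched (0.164%). It was present in 3 H3.1, 2 H4, 2 H2A, 1 H2A.W, 1 H3.3 and 1 H1 promoters. The hexamer ACGTCA was found in all 8 H2B promoters, in 4 others of the 39, and in 9.79% of all promoters. TTTCCCGC, 1 exact form of the site of E2F factors, which switch on S-phase genes, was found in none of the 39 and in 0.86% of all promoters. Other forms of that site were not searched, so these promoters are not shown to lack it. A match describes these letters in this window and was not tested as a site of binding. The promoter of H3.1 AT1G09200 (TAIR10.1, chr1:2972285-2972584, minus strand, shown 5′ to 3′) holds the octamer in both the positions given in capitals, which begin 90 and 19 bases before the start.
AT1G09200 promoter: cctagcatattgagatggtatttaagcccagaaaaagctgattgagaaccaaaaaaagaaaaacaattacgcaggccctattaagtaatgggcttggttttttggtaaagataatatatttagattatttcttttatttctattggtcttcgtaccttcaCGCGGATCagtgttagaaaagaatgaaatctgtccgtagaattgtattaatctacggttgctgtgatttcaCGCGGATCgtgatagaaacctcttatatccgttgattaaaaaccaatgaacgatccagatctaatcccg

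The following lines give the octamer in its surroundings in genes of different classes that are followed below, and then the hexamer in 4 H2B genes, motifs in capitals.
H3.1 AT5G10400: acacaggaCGCGGATCgtaaagat
H3.1 AT5G65360: agacgtgaCGCGGATCactaaaat
H4 AT1G07660: agatttcaCGCGGATCgcaatctt
H4 AT5G59690: tgccatcaCGCGGATCactaatat
H2A.W HTA6: catagtcaCGCGGATCgtgcttta
H2B HTB2: aagtaaccACGTCAgctatcca
H2B HTB9: atattgacACGTCAtcgatccc
H2B HTB11: tatattccACGTCAtcaatcct
H2B HTB4: tctgggacACGTCAatag

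In HTB4 the hexamer begins 40 bases after the annotated start, whereas every other H2B promoter holds a copy before the start.

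In unheated leaves at T9, compared per kilobase of transcript, the 3 H3.3 genes were the most abundant histone transcripts. AT4G40040 averaged 177 ± 6.28, AT4G40030 175 ± 16.3 and AT5G10980 123 ± 4.22 TMM-CPM per kb (SD, n = 2 plates), and the first 2 did not differ beyond their spread. H4 AT5G59690 followed at 110.1 ± 24.4, HTB4 at 92.3 ± 8.27, H1 AT1G06760 at 88.8 ± 2.66 and H3.1 AT5G65360 at 87.6 ± 15.4 TMM-CPM per kb, a run of neighbours that overlapped within their spread. H2B AT3G53650 was lowest at 4.68 ± 0.0653 TMM-CPM per kb, just under HTA12 at 4.71 ± 0.56 TMM-CPM per kb.

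**Figure D1:**
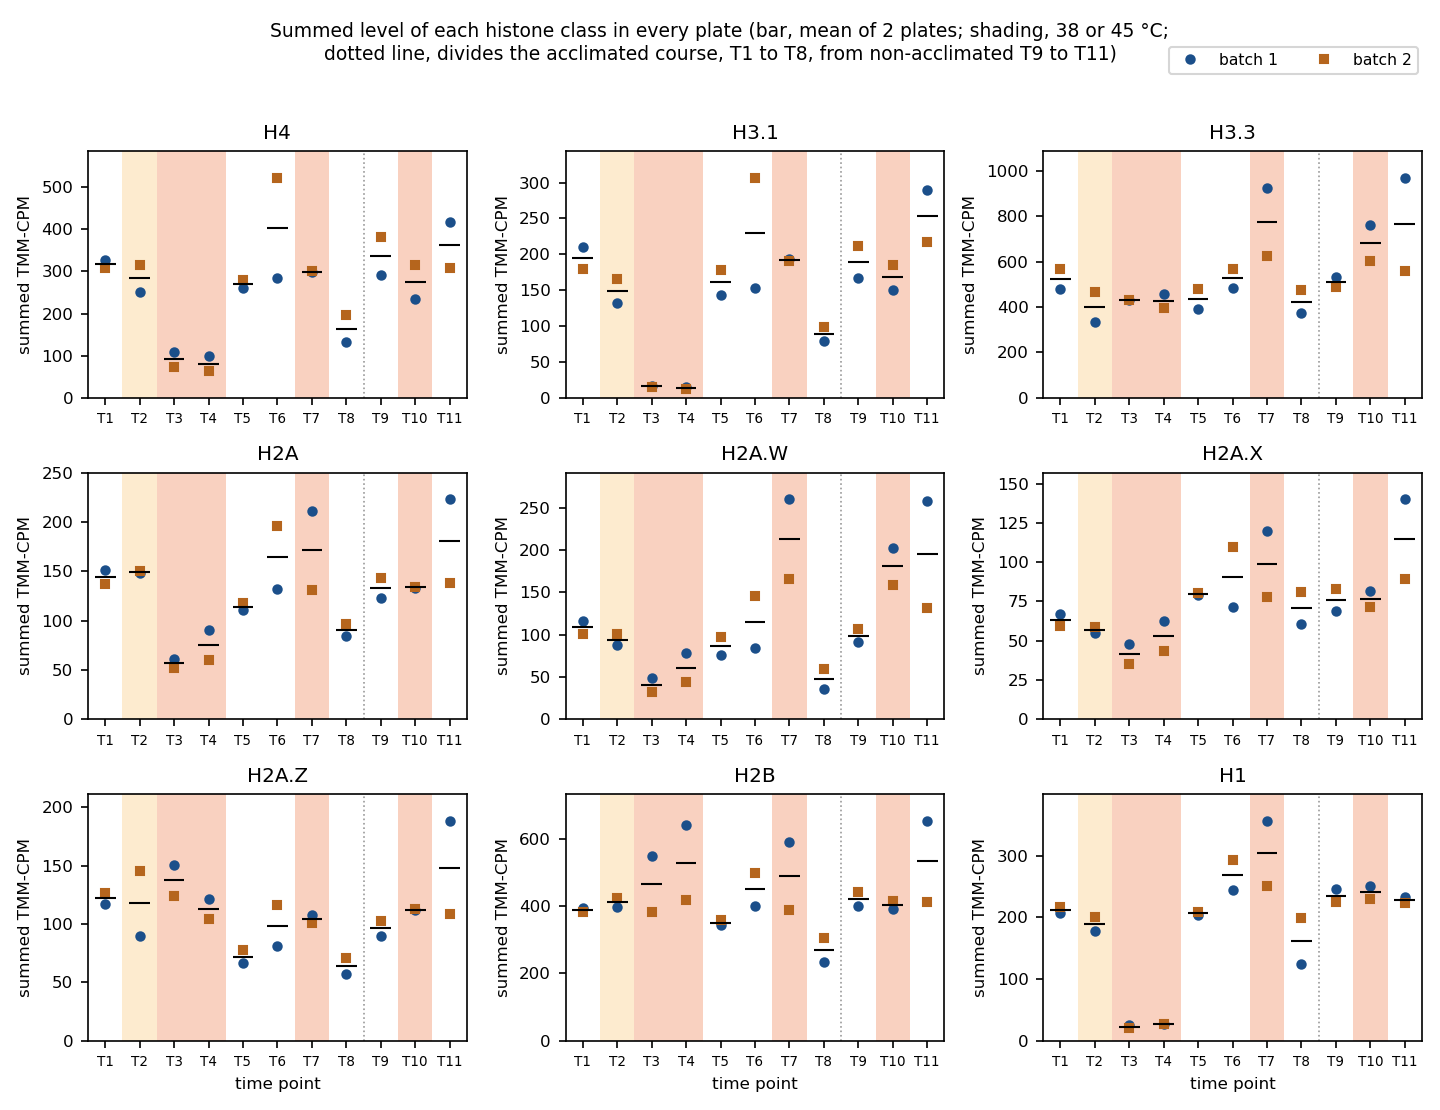
Summed TMM-CPM of the genes of each histone class (vertical axis, from 0) at T1 to T11 (horizontal axis), with 1 point per plate, the mean as a bar, and shading at 38 °C (pale) and 45 °C. H3.1 and H1 were lowest at T3 and T4, and both T8 plates lay below both T11 plates in every class.

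The end of the slow acclimation, T4, was compared with unheated leaves of the same hour, T9, to ask which histone genes the treatment had changed. Of the 39 genes 27 fell and 1 rose, where among all 20980 loci 24.2% fell and 18.7% rose. The median log2 change of the 39 was -1.72, beside -0.30 for all loci. The classes parted. All 5 H3.1 and all 3 H1 genes fell, as did 7 of 8 H4, 7 of 8 H2B and 3 of 4 H2A genes, 1 of 3 H2A.W and 1 of 2 H2A.X genes. None of the 3 H3.3 or the 3 H2A.Z genes passed, but this rests on the scaling. Tested with limma on the authors' deposited log2 values, 31 of the 39 fell and 1 rose, and H3.3 AT4G40030 at -1.49 (adjusted p = 0.00024), H3.3 AT4G40040 at -1.17 (adjusted p = 0.000864) and H2A.Z HTA9 at -0.68 (adjusted p = 0.0309) passed. There the class median was -1.17 for H3.3, -3.49 for H3.1 and 0.68 for H2A.Z, beside -0.05 for all loci. Scaled by library size alone, 37 fell and none rose. In bulk tissue fewer cells of a type and less RNA per cell cannot be told apart.

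The summed level of H3.1, the replication-coupled H3, was 14.4 and 12.1 TMM-CPM at T4, against 166 and 211 TMM-CPM at T9. The summed level of H3.3 was 456 and 396 TMM-CPM at T4, against 530.2 and 489.9 TMM-CPM at T9. Both T4 plates lay far below both T9 plates for H3.1, and below them by a small margin for H3.3. H3.1 AT5G65360, the most abundant of its class, had 5.28 and 4.07 TMM-CPM at T4, against 55.5 and 71.2 TMM-CPM at T9, a log2 change of -3.75 ± 0.35 (adjusted p = 5.31e-06). A neighbouring pair on chromosome 5 was close to 0. AT5G10400 (chr5:3270172-3270957) had 0.406 and 0.701 TMM-CPM at T4, against 32.5 and 40.4 TMM-CPM at T9, a log2 change of -5.98 ± 0.41 (adjusted p = 1.34e-06). AT5G10390 (chr5:3268847-3269594) had 0.203 and 0.281 TMM-CPM at T4, against 16.2 and 21.2 TMM-CPM at T9. These were 3 counts over both T4 plates and 1314 counts over both T9 plates, a level 75.7-fold lower at T4 with a 95% counting interval of 25.8 to 367.5, which covers counting error only. H3.3 AT4G40040 had 210.2 and 188 TMM-CPM at T4, against 234 and 223 TMM-CPM at T9, and did not pass (log2 change -0.20 ± 0.28, adjusted p = 0.581).

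The 8 H4 genes, which make the same protein, behaved differently. H4 AT3G46320 had 0.609 and 0 TMM-CPM at T4, against 27.4 and 19.1 TMM-CPM at T9. These were 3 counts over both T4 plates and 1604 over both T9 plates, 92.4-fold lower with a counting interval of 31.6 to 448.5. AT3G53730 had 3.45 and 1.96 TMM-CPM at T4, against 43.3 and 56.6 TMM-CPM at T9 (log2 change -4.22 ± 0.39, adjusted p = 5.35e-06). AT5G59690, the most abundant H4 gene, had 42.2 and 20.8 TMM-CPM at T4, against 69.2 and 94.9 TMM-CPM at T9 (log2 change -1.38 ± 0.42, adjusted p = 0.0173). Plates did not overlap between the time points in any of these. AT1G07660 had 14 and 12.1 TMM-CPM at T4, against 11.2 and 39.2 TMM-CPM at T9, and there the plates overlapped and the test was not passed. HIS4 had 8.93 and 6.45 TMM-CPM at T4, against 34.5 and 49.5 TMM-CPM at T9 (log2 change -2.45 ± 0.31, adjusted p = 4.28e-05), and AT5G59970 had 11.6 and 8.98 TMM-CPM at T4, against 34.1 and 32.9 TMM-CPM at T9 (log2 change -1.72 ± 0.33, adjusted p = 0.00101). Log2 changes within the class thus spanned from those of AT1G07660 and AT5G59690 to the near loss of AT3G46320. AT1G07660 and AT3G46320 are among the H4 genes whose levels are uncertain from shared stretches. AT3G53730 and AT5G59690, which share less, differed as well. The 2 H4 genes with an octamer in the promoter, AT1G07660 and AT5G59690, were the 2 with the smallest log2 changes of the class at T4.

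**Figure D2:**
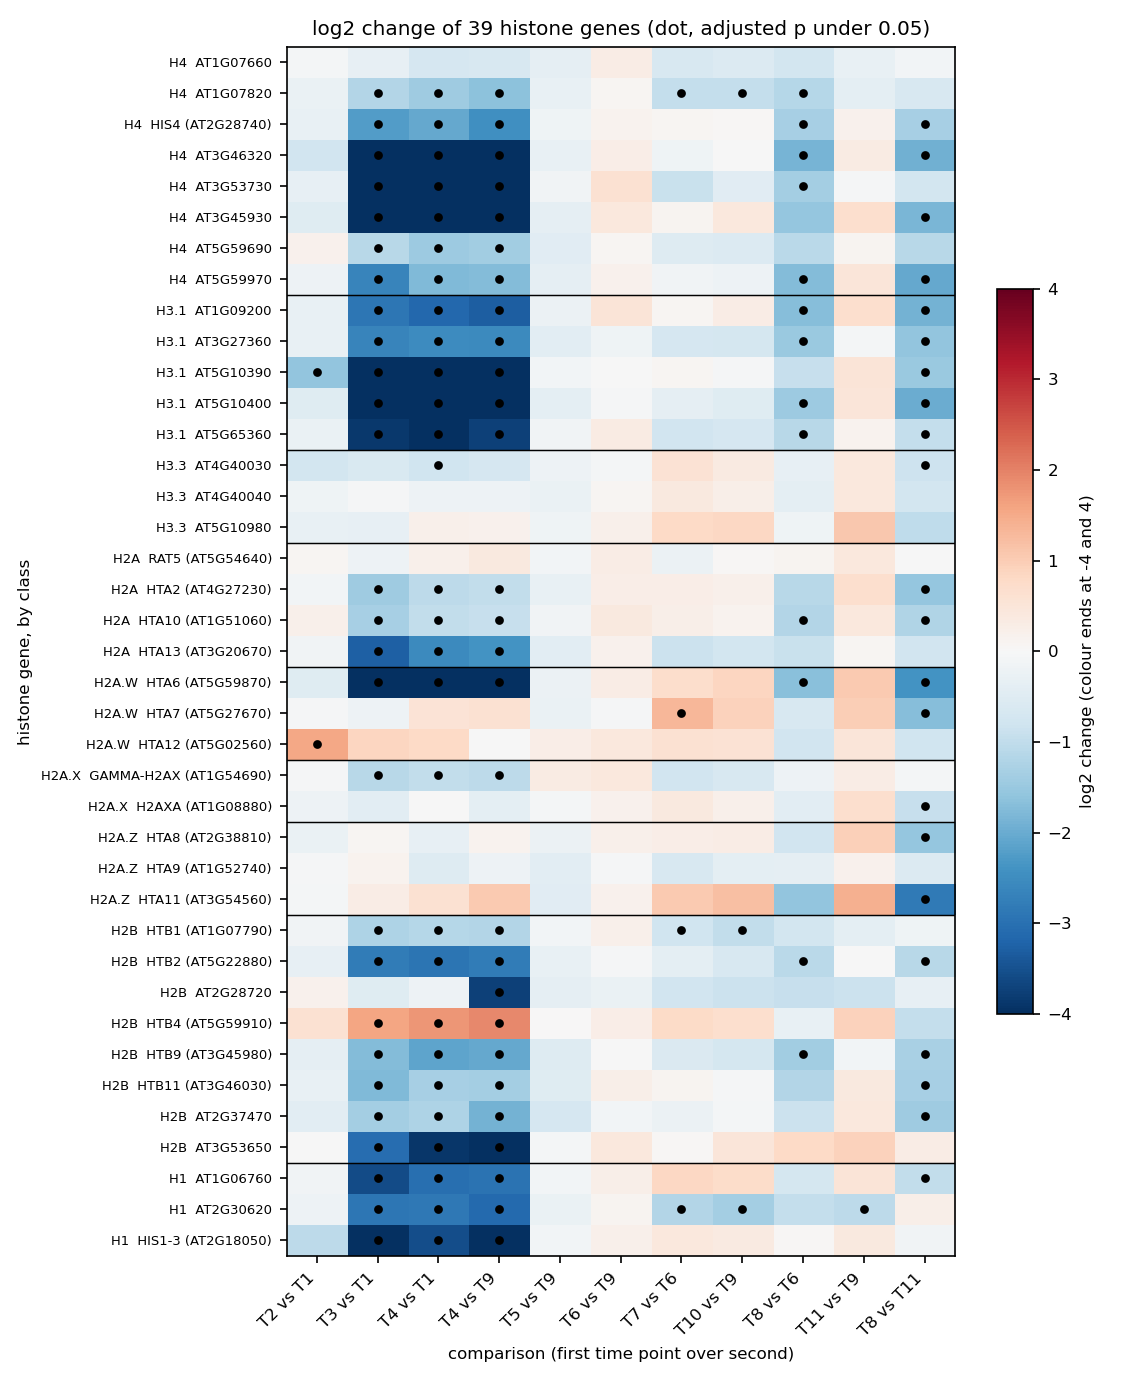
Log2 change (colour, ending at -4 and 4) of each of the 39 histone genes (rows, by class) in 11 comparisons (columns), with a dot where the adjusted p was under 0.05. Genes with 1 to 3 counts at T3 or T4 are drawn at their fitted value, which depends on edgeR's prior count. H3.3 and H2A.Z are paler than H3.1 and H1 in the T4 columns, HTB4 is the red row, and the T5 and T6 columns hold no dot.

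Among the H2A.W genes 1 fell and the other 2 did not pass. HTA6 (chr5:24115354-24116220) had 2.64 and 1.26 TMM-CPM at T4, against 49.1 and 69.5 TMM-CPM at T9, a log2 change of -4.95 ± 0.56 (adjusted p = 1.97e-05). HTA7, which encodes another H2A.W, had 66.6 and 37.6 TMM-CPM at T4, against 34.9 and 30.8 TMM-CPM at T9 (log2 change 0.62 ± 0.36, adjusted p = 0.173). HTA6 plates were far apart between the time points and HTA7 plates lay higher at T4. Of canonical H2A, HTA13 fell most, with 8.32 and 2.67 TMM-CPM at T4, against 24.1 and 31.2 TMM-CPM at T9 (log2 change -2.38 ± 0.45, adjusted p = 0.000931). HTA10, the most abundant, had 37.1 and 25.0 TMM-CPM at T4, against 53.7 and 62.1 TMM-CPM at T9 (log2 change -0.92 ± 0.28, adjusted p = 0.016), and RAT5, a gene known for its need in Agrobacterium transformation, did not pass. Of H2A.X, GAMMA-H2AX fell, with 9.54 and 12.2 TMM-CPM at T4, against 19.7 and 25.3 TMM-CPM at T9 (log2 change -1.05 ± 0.27, adjusted p = 0.00587). H2AXA, the more abundant gene of that pair, had 53.2 and 31.1 TMM-CPM at T4, against 49.4 and 57.3 TMM-CPM at T9, and its plates overlapped. HTA9, the most abundant H2A.Z gene, had 55.8 and 60.5 TMM-CPM at T4, against 66.8 and 67.8 TMM-CPM at T9 (log2 change -0.21 ± 0.25, adjusted p = 0.511). HTA11, another H2A.Z gene, had 58.7 and 37.7 TMM-CPM at T4, against 18.6 and 28.0 TMM-CPM at T9, with both T4 plates above both T9 plates and no call (log2 change 1.04 ± 0.46, adjusted p = 0.0772). Within a plate, the log2 ratio of canonical H2A to H2A.Z counts was -1.30 to -0.43 in the 4 plates of T3 and T4, against 0.04 to 0.97 in the other 18 plates.

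HTB4, an H2B gene (chr5:24126877-24128162), was the 1 histone gene that rose. It had 555 and 358 TMM-CPM at T4, against 111 and 126 TMM-CPM at T9, a log2 change of 1.92 ± 0.36 (adjusted p = 0.000873). On the authors' deposited log2 values it was 0.85 (adjusted p = 0.0145 with limma). It stood at 193 and 212 TMM-CPM by T2 and at 471 and 322 TMM-CPM at T3, against 135 and 130.4 TMM-CPM at T1, before the ramp. All other H2B genes fell, HTB2 with 11.8 and 9.26 TMM-CPM at T4, against 64.2 and 82.9 TMM-CPM at T9 (log2 change -2.80 ± 0.31, adjusted p = 1.85e-05). H2B AT3G53650, the least abundant of the class, had 0.203 and 0.281 TMM-CPM at T4, against 4.42 and 4.51 TMM-CPM at T9. These were 3 counts over both T4 plates and 312 over both T9 plates, 17.97-fold lower with a counting interval of 6.09 to 87.6. Within a plate, HTB4 counts were set over those of the other listed H2B genes, a ratio that no scaling changes. Its log2 value was 2.67 and 2.56 at T4, against -1.38 and -1.34 at T9. HTB4 thus made up most counts of the listed H2B genes at T4 and a minority at T9.

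All 3 linker histone genes fell. H1 AT1G06760 had 15.0 and 11.8 TMM-CPM at T4, against 105.1 and 100.8 TMM-CPM at T9 (log2 change -2.95 ± 0.33, adjusted p = 1.7e-05). H1 AT2G30620 had 12.4 and 15.2 TMM-CPM at T4, against 121 and 114 TMM-CPM at T9 (log2 change -3.12 ± 0.31, adjusted p = 8.18e-06). HIS1-3, the H1 variant known for its induction by drought, had 0 and 0.561 TMM-CPM at T4, a total of 4 counts, against 20.4 and 8.97 TMM-CPM at T9 (log2 change -5.50 ± 0.76, adjusted p = 8.7e-05). No T4 plate reached a T9 plate for any H1 gene.

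The direction of these changes rests in part on the scaling. Scaled by library size alone, the median of all loci at T4 over T9 moved to -2.02. HTB4 then had a log2 change of 0.16 (adjusted p = 0.605), and HTA7 and H3.3 AT5G10980, neither of which passed under TMM scaling, turned to -1.14 and -1.56. Relative to that median, the class medians were -3.47 for H3.1, -2.83 for H1, -1.81 for H4, -1.72 for H2B, 0.08 for H3.3 and 0.41 for H2A.Z, and HTB4 stood at 2.18. As shares of all histone counts, which no scaling touches, H3.1 made up 0.906% and 1.03% at T4, against 8.28% and 9.66% at T9. H2B made up 40.4% and 35.8% at T4, against 19.9% and 20.3% at T9, and H1 1.72% and 2.35% at T4, against 12.3% and 10.2% at T9.

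**Figure D3:**
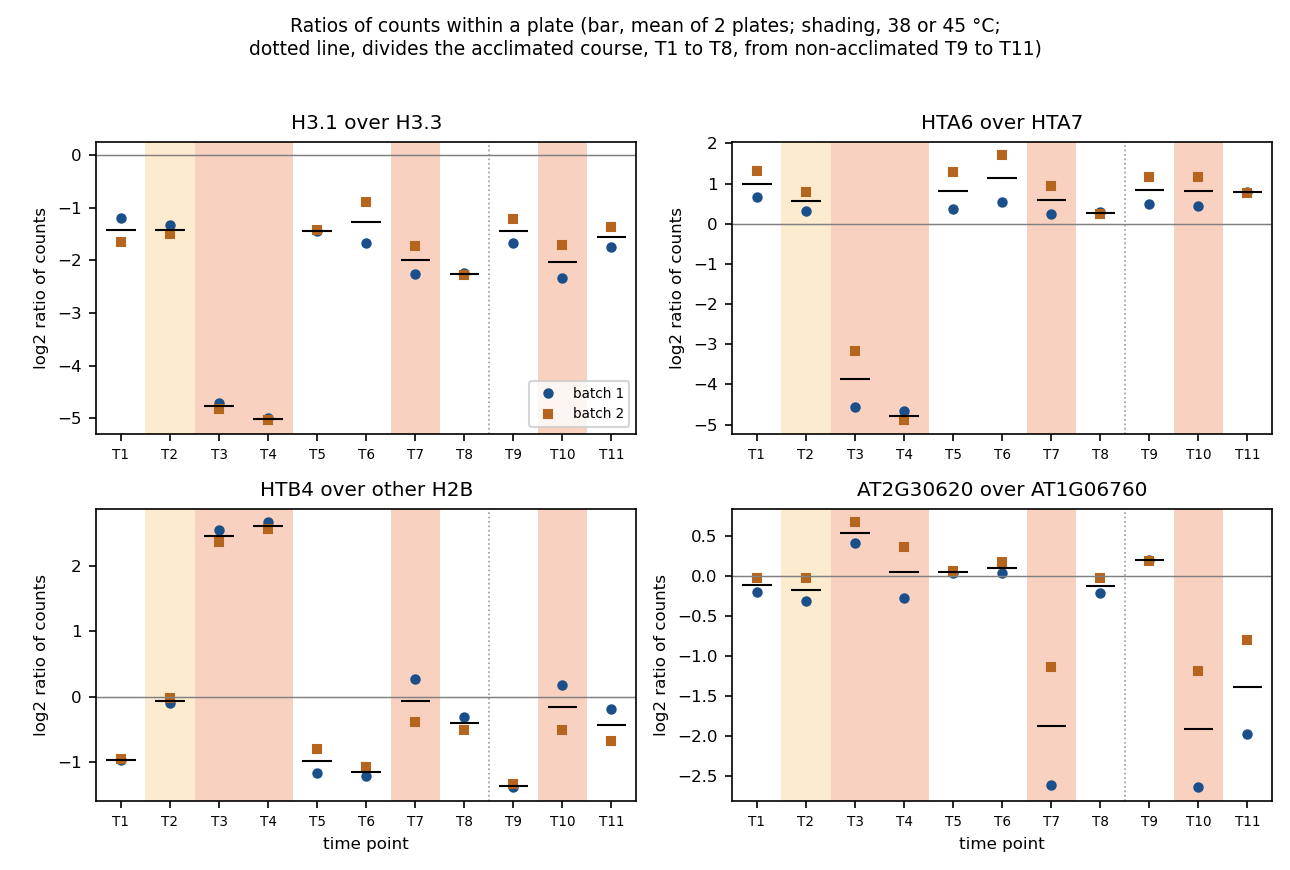
Log2 ratio of counts within each plate (vertical axis) at T1 to T11 (horizontal axis) for H3.1 over H3.3, HTA6 over HTA7, HTB4 over the other H2B genes, and H1 AT2G30620 over H1 AT1G06760, with 1 point per plate and the mean as a bar. The first 3 ratios depart at T3 and T4, between -5.04 and -4.70 for H3.1 over H3.3, and the last departs at T7, T10 and T11.

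The changes were in place by the end of the ramp. T1 was taken at dawn, T2 and T3 at 3 h and 6 h after lights on, so heat and hour of day cannot be told apart here. At T3, against T1, 26 of the 39 genes fell and 1 rose, where 23.4% of all loci fell and 18.3% rose, and 37 fell and none rose under library size scaling. H3.1 AT5G10400 had 1.59 and 1.14 TMM-CPM at T3, against 40.5 and 32.6 TMM-CPM at T1 (log2 change -4.80 ± 0.36, adjusted p = 2.26e-06). After 3 h, at T2 against T1, 1 gene fell and 1 rose, where 0.744% of all loci fell and 2.01% rose. The one that fell was H3.1 AT5G10390, with 4.81 and 7.52 TMM-CPM at T2, against 17.0 and 19.5 TMM-CPM at T1 (log2 change -1.59 ± 0.35, adjusted p = 0.0209). The one that rose was HTA12, an H2A.W gene, with 9.93 and 12.3 TMM-CPM at T2, against 4.41 and 3.31 TMM-CPM at T1 (log2 change 1.56 ± 0.39, adjusted p = 0.0461). Neither gene's plates overlapped, and neither call held without the batch term or without any 1 of the 4 plates. In unheated leaves at T9, HTA12 had 7.32 and 6.19 TMM-CPM, also above T1, and AT5G10390 had 16.2 and 21.2 TMM-CPM. Across T3 and T4 the log2 ratio of H3.1 to H3.3 counts lay between -5.04 and -4.70 in 4 plates, and in the other 18 plates between -2.34 and -0.88.

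Against dawn, T1, in place of T9, T4 gave 27 lower and 1 higher of the 39 (23.5% and 18.8% of all loci), and 38 and none under library size scaling. The calls differed for 2 genes. H2B AT2G28720 passed against T9 and not against T1, with 3.86 and 3.09 TMM-CPM at T4, against 62.5 and 32.8 TMM-CPM at T9 and 4.68 and 3.35 TMM-CPM at T1. It was the 1 histone gene that differed between the unheated samples, where 1.6% of all loci were higher and 0.315% lower at T9, with a log2 change of 3.53 ± 0.46 (adjusted p = 0.000961). H3.3 AT4G40030 passed against T1 and not against T9, with 122 and 104 TMM-CPM at T4, against 171 and 222 TMM-CPM at T1 (log2 change -0.80 ± 0.29, adjusted p = 0.0398). HIS1-3 also stood lower at dawn, at 20.4 and 8.97 TMM-CPM at T9, against 4.01 and 3.61 TMM-CPM at T1, short of the threshold (log2 change 1.95 ± 0.49, adjusted p = 0.059). Day and hour of sampling cannot be told apart in T9 over T1, nor can heat and hour in T4 over T1.

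Other genes of histone supply were followed at T4 against T9. Of 24 chaperones and exchange factors 3 rose and 8 fell. FAS1 and FAS2, the large subunits of CAF-1, had log2 changes of -3.81 ± 0.84 (adjusted p = 0.00246) and -3.43 ± 0.53 (adjusted p = 0.000216). MSI1, the third CAF-1 subunit, which also serves other complexes, rose by 1.75 ± 0.28 (adjusted p = 0.000282), and NASP, an H3 chaperone, fell by 1.78 ± 0.28 (adjusted p = 0.000248). Of 10 DNA replication genes 4 fell and 1 rose, with RNR1, a ribonucleotide reductase subunit, at -1.91 ± 0.29 (adjusted p = 0.000196). Of 6 E2F and retinoblastoma genes none passed. These shares are to be read against the 24.2% of loci that fell.

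Markers of tissue moved as well. The summed shoot apex markers were 16.6 and 19.4 TMM-CPM at T4, against 39.98 and 39.7 TMM-CPM at T9, with 1 of 4 tested markers, CLV1, lower. At T10, the end of the sudden shock, the same sum was 15.95 and 21.3 TMM-CPM. CLV1 was lower there than at T9 (log2 change -1.33 ± 0.32, adjusted p = 0.0237), and STM, KNAT1 and KNAT2 did not pass. The part of the apex markers in the histone result was not tested. The summed photosynthesis genes were 142300 and 85540 TMM-CPM at T4, against 30660 and 29750 TMM-CPM at T9, with 4 of 5 higher, and their part was not tested either.

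No histone gene was called 2 or 4 days after acclimation. At T5 and at T6, each against T9, none of the 39 passed, none had an unadjusted p under 0.05, and DESeq2 called none. Among all loci 0.443% passed at T5 and 0.0191% at T6. Summed H3.1 was 144 and 179 TMM-CPM at T5 and 154 and 307 TMM-CPM at T6, against 166 and 211 TMM-CPM at T9. Summed H1 was 204 and 209 TMM-CPM at T5 and 244 and 293 TMM-CPM at T6, against 246 and 224 TMM-CPM at T9. The batch 2 plate of T6 was the highest of all 22 in summed H3.1 and H4, the last at 522 TMM-CPM beside 285 TMM-CPM in batch 1.

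Few histone genes, and few loci of any kind, passed after a sudden move to 45 °C for 90 min. T7 and T10 were also taken 90 min later in the day than T6 and T9, which cannot be told apart from the shock. In acclimated plants, T7 against T6, 3 genes fell and 1 rose, where 3.78% of all loci fell and 4.46% rose. In non-acclimated plants, T10 against T9, 3 fell and none rose, where 4.46% of loci fell and 3.76% rose. The 3 that fell were H4 AT1G07820, H2B HTB1 and H1 AT2G30620 in both. The 2 comparisons share no plate, and in the test of a difference between them none of the 39 passed (interaction, 0 of 39, with 0 at an unadjusted p under 0.05 and 0 by DESeq2, and 0% of all loci).

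H1 AT2G30620 and H1 AT1G06760 parted under the shock. AT2G30620 had 47.8 and 68.8 TMM-CPM at T7, against 115 and 146 TMM-CPM at T6 (log2 change -1.17 ± 0.28, adjusted p = 0.0257). It had 31.9 and 64.9 TMM-CPM at T10, against 121 and 114 TMM-CPM at T9 (log2 change -1.35 ± 0.28, adjusted p = 0.0138). AT1G06760 had 199 and 148 TMM-CPM at T10, against 105.1 and 100.8 TMM-CPM at T9, which did not pass (log2 change 0.74 ± 0.30, adjusted p = 0.122). AT2G30620 plates lay below and AT1G06760 plates above those taken before the shock. Within a plate the log2 ratio of AT2G30620 to AT1G06760 was -2.64 to -1.14 in the 4 plates of T7 and T10, against 0.03 to 0.20 in the 6 plates of T5, T6 and T9. It was -1.97 and -0.81 at T11, 2 days after the shock in non-acclimated plants, against 0.20 and 0.18 at T9. Both H1 genes overlap a gene on the opposite strand.

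HTB1 had 13.2 and 19.5 TMM-CPM at T10, against 30.2 and 33.5 TMM-CPM at T9 (log2 change -0.98 ± 0.22, adjusted p = 0.0195). HTA7, an H2A.W gene, was the 1 that rose at T7, with 110.4 and 53.5 TMM-CPM, against 30.4 and 31.9 TMM-CPM at T6 (log2 change 1.32 ± 0.36, adjusted p = 0.0392). At T10 it had 80.7 and 46.4 TMM-CPM, against 34.9 and 30.8 TMM-CPM at T9 (log2 change 0.91 ± 0.36, adjusted p = 0.116). Without the batch term none of the 39 passed in either comparison, and scaled by library size alone 15 did at T7 and 16 at T10. At T7 over T6 none passed without either T6 plate or without the batch 1 plate of T7. At T10 over T9 none passed without the batch 1 plate of T9 or of T10, and 1 without the batch 2 plate of T9.

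**Figure D4:**
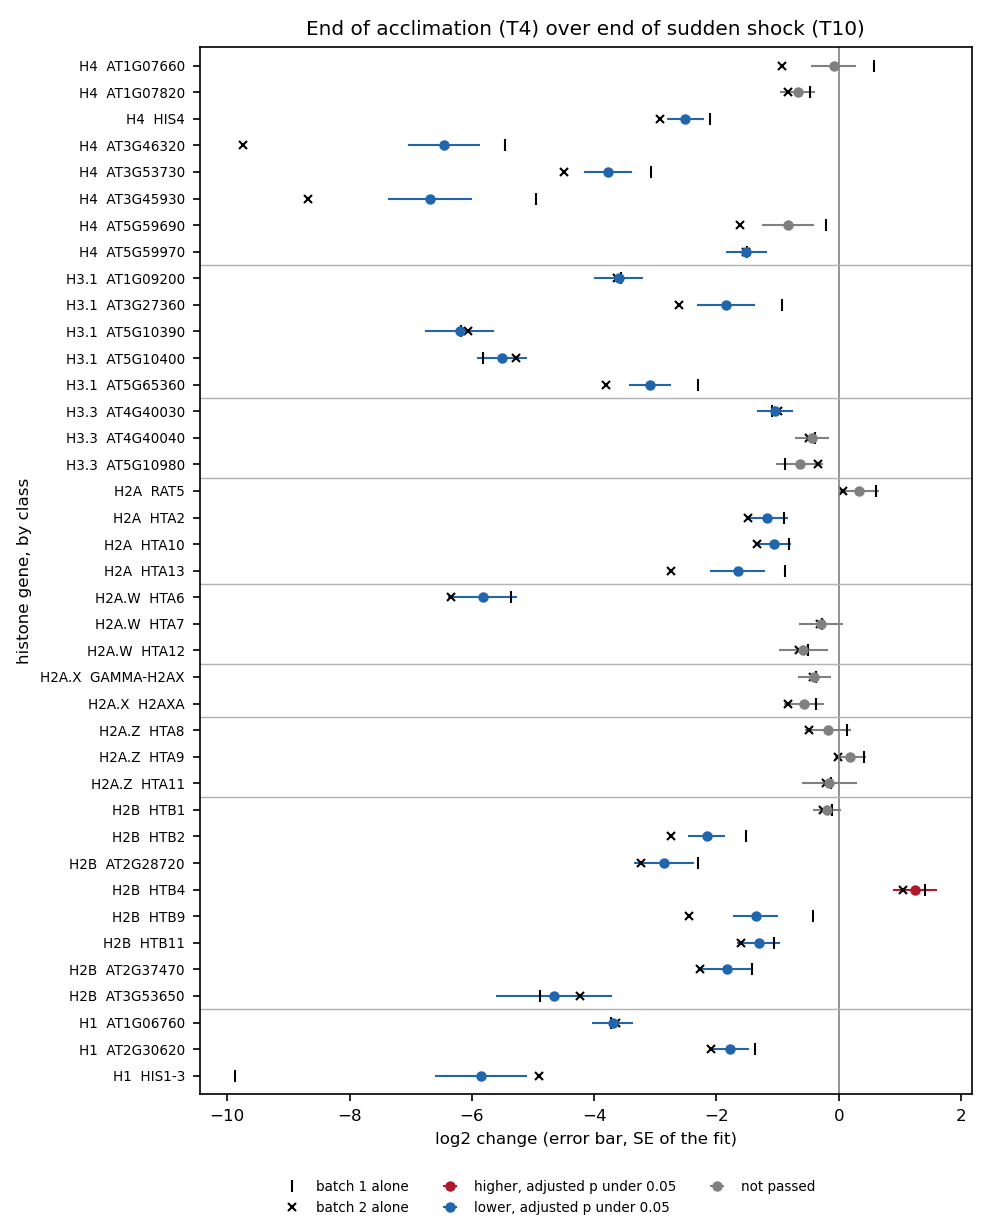
Log2 change at T4 over T10 (horizontal axis) of the 39 histone genes (rows, by class). The bar is the approximate standard error, and a tick and a cross give the change in each batch alone. All H3.1 and H1 genes and HTA6 lie left of 0, HTB4 lies right, and H2A.Z genes lie near 0. The leftmost single-batch marks, of AT3G46320, AT3G45930 and HIS1-3, come from T4 plates with no count or nearly none.

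Plants of T4 and T10 had both spent 90 min at 45 °C, reached slowly at T4 and suddenly at T10, so these were set against each other after the values above had been seen. T4 was sampled on day 12, 7.5 h after lights on, and T10 on day 16, 9 h after lights on. At T4, against T10, 24 of the 39 genes were lower and 1 higher, where 16.2% of all loci were lower and 12.1% higher. The median log2 change of the 39 was -1.36, beside -0.17 for all loci. Summed H3.1 was 14.4 and 12.1 TMM-CPM at T4, against 151 and 185 TMM-CPM at T10, and summed H1 27.4 and 27.5 TMM-CPM at T4, against 251 and 230.1 TMM-CPM at T10. All 5 H3.1 and all 3 H1 genes were lower at T4. HTA6 had 2.64 and 1.26 TMM-CPM at T4, against 109 and 105 TMM-CPM at T10 (log2 change -5.82 ± 0.57, adjusted p = 1.29e-05). HTA7 had 66.6 and 37.6 TMM-CPM at T4, against 80.7 and 46.4 TMM-CPM at T10, with overlapping plates (log2 change -0.29 ± 0.36, adjusted p = 0.571). Of the 3 H3.3 genes 1 was lower at T4, and their median log2 change was -0.64. No gene of H2A.Z or H2A.X passed.

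HTB4 was higher at T4, with 555 and 358 TMM-CPM, against 209 and 172 TMM-CPM at T10 (log2 change 1.25 ± 0.36, adjusted p = 0.0173), and both T4 plates lay above both T10 plates. That call was lost without the batch 1 plate of T4 and without either plate of T10, where the adjusted p was 0.0704 to 0.134, under library size scaling (log2 change 0.14, adjusted p = 0.679), and with limma on the authors' deposited log2 values (0.70, adjusted p = 0.0512). H1 AT1G06760 had 15.0 and 11.8 TMM-CPM at T4, against 199 and 148 TMM-CPM at T10 (log2 change -3.69 ± 0.34, adjusted p = 8.44e-06). Of the DNA replication genes 8 of 10 were lower at T4 than at T10 and none higher, with RNR1 at -2.60 ± 0.30 (adjusted p = 4.46e-05). Of the chaperones and exchange factors 4 were lower and 4 higher.

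At 2 days after the shock, acclimated leaves (T8) were compared with non-acclimated leaves (T11). Of the 39 genes 22 were lower at T8 and none higher, where 13.4% of all loci were lower and 13.9% higher. Under library size scaling 12 were lower. The median log2 change was -1.03, beside 0.01 for all loci. All 5 H3.1 genes were lower, 4 of 8 H4, 4 of 8 H2B, 2 of 4 H2A, 2 of 3 H2A.W, 2 of 3 H2A.Z, 1 of 2 H2A.X, 1 of 3 H3.3 and 1 of 3 H1 genes. H2A.Z and H3.3, of which no gene passed at T4 against T9, were thus among the classes with a call here. That difference between comparisons was not tested.

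HTA11, an H2A.Z gene (chr3:20196140-20197726), had 7.19 and 10.4 TMM-CPM at T8, against 89.6 and 36.2 TMM-CPM at T11, a log2 change of -2.84 ± 0.48 (adjusted p = 0.00153). Before the shock it had 16.2 and 36.0 TMM-CPM at T6 and 18.6 and 28.0 TMM-CPM at T9. At the end of the shock it had 62.6 and 45.7 TMM-CPM at T7 and 63.9 and 43.4 TMM-CPM at T10. It passed in neither T7 over T6 nor T10 over T9. HTA6 had 17.7 and 28.7 TMM-CPM at T8, against 158 and 77.7 TMM-CPM at T11 (log2 change -2.41 ± 0.45, adjusted p = 0.00242). H4 AT5G59970 had 10.8 and 11.8 TMM-CPM at T8, against 69.3 and 27.8 TMM-CPM at T11 (log2 change -2.05 ± 0.32, adjusted p = 0.00112). Within a plate, the log2 ratio of HTA11 to HTA9, the most abundant H2A.Z gene, was -2.72 and -2.41 at T8, against 0.05 and -0.79 at T11. No T8 plate reached a T11 plate in these genes, and the batch 1 plate of T11 was the higher of its pair each time. H3.1 AT5G10400 had 11.0 and 14.6 TMM-CPM at T8, against 61.5 and 39.02 TMM-CPM at T11 (log2 change -1.998 ± 0.28, adjusted p = 0.000676). HTB4 had 105.4 and 126 TMM-CPM at T8, against 306 and 159 TMM-CPM at T11, short of the threshold (log2 change -0.97 ± 0.35, adjusted p = 0.0546). H3.3 AT4G40030 had 112 and 161 TMM-CPM at T8, against 295 and 194 TMM-CPM at T11, with no overlap (log2 change -0.84 ± 0.29, adjusted p = 0.0463). H1 AT1G06760 had 60.8 and 87.5 TMM-CPM at T8, against 172 and 128 TMM-CPM at T11, also with no overlap (log2 change -0.99 ± 0.30, adjusted p = 0.0255). H1 AT2G30620 had 52.2 and 85.6 TMM-CPM at T8, against 43.7 and 73.1 TMM-CPM at T11, with overlapping plates (log2 change 0.24 ± 0.28, adjusted p = 0.541).

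**Figure D5:**
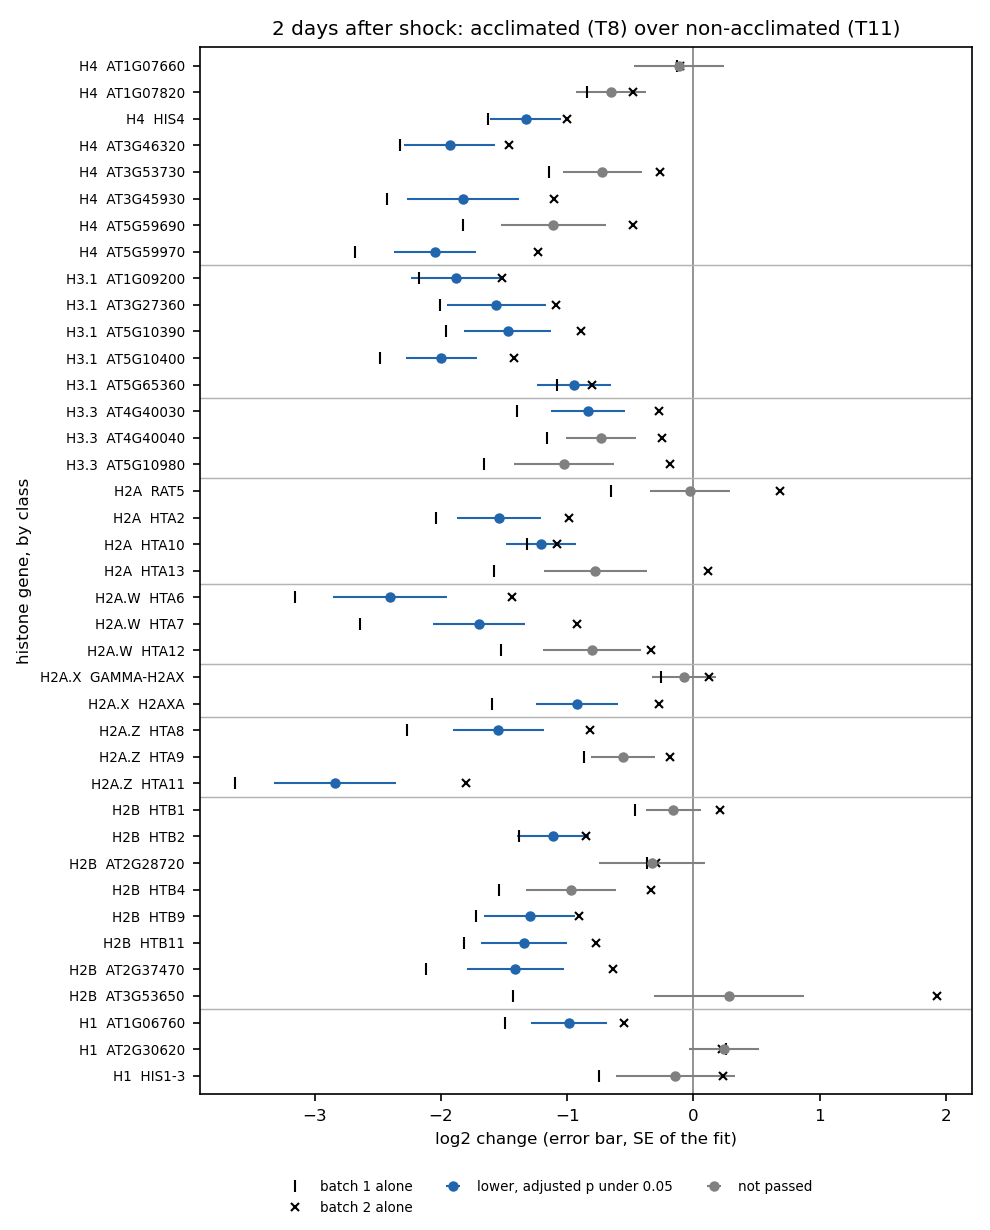
Log2 change at T8 over T11 (horizontal axis) of the 39 histone genes (rows, by class). The bar is the approximate standard error, and a tick and a cross give the change in each batch alone. Most points lie left of 0 in every class, with HTA11 at -2.84, and the tick of batch 1 usually lies left of the cross of batch 2.

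The difference was larger in batch 1, where the median log2 change of the 39 was -1.58, beside -0.55 in batch 2. Without the batch 1 plate of T8, 6 of the 39 were called, and without the batch 1 plate of T11, 8. A fit of the T8 and T11 plates alone called none. The summed photosynthesis genes moved the same way, with 4064 and 8678 TMM-CPM at T8, against 33120 and 32590 TMM-CPM at T11, and all 5 were lower. HSP101 stood at 372 and 484 TMM-CPM at T8, against 3601 and 1241 TMM-CPM at T11, and HSFA2, a heat shock factor, at 91.2 and 149.6 TMM-CPM at T8, against 1623 and 866 TMM-CPM at T11. Reads aligned to more than 1 place were 5.21% to 25.3% of a library at T8, against 14.1% to 41.5% at T11. The part of these in the histone result was not tested. Of the 10 DNA replication genes 5 were lower at T8 and none higher, with PCNA1, the replication clamp, at -1.99 ± 0.33 (adjusted p = 0.00142).

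Each recovery was also set against its own state before the shock. T8 and T11 were taken on day 18, T6 and T9 on day 16, so the shock and 2 days of age cannot be told apart in either. In acclimated plants, T8 against T6, 13 of the 39 fell and none rose, where 3.27% of all loci fell and 1.37% rose. These were 5 H4, 4 H3.1, 2 H2B, 1 H2A and 1 H2A.W genes. H4 AT5G59970 had 10.8 and 11.8 TMM-CPM at T8, against 31.1 and 42.9 TMM-CPM at T6 (log2 change -1.72 ± 0.32, adjusted p = 0.00941). No gene passed without the batch 2 plate of T6 or the batch 1 plate of T8, 8 passed without the other T6 plate, and 4 without the other T8 plate or without the batch term. The summed root markers were 0.451 and 1.37 TMM-CPM at T8, against 8.61 and 28.2 TMM-CPM at T6, with 3 of 6 lower, and the batch 2 plate of T6 was the highest of all 22. The summed photosynthesis genes were 4064 and 8678 TMM-CPM at T8, against 17050 and 29060 TMM-CPM at T6, with 1 of 5 lower. Among the apex markers CLV1 was lower (log2 change -1.36 ± 0.32, adjusted p = 0.0278), and STM, KNAT1 and KNAT2 did not pass. The part of these markers in the histone result was not tested. In non-acclimated plants, T11 against T9, 1 of the 39 fell and none rose, where 3.67% of loci fell and 3.02% rose. It was H1 AT2G30620, with 43.7 and 73.1 TMM-CPM at T11, against 121 and 114 TMM-CPM at T9 (log2 change -1.06 ± 0.28, adjusted p = 0.0385). That call was lost without any 1 of the 4 plates and without the batch term. Among the apex markers at T11 over T9, CLV1 was lower (log2 change -1.74 ± 0.32, adjusted p = 0.00856). STM was higher (log2 change 1.91 ± 0.37, adjusted p = 0.00977), and KNAT1 and KNAT2 did not pass. Their part was not tested.

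The difference between these 2 changes was tested as an interaction, (T8 over T6) over (T11 over T9). It passed for 6 of the 39, all lower in acclimated plants, where 0.786% of all loci were lower and 0.672% higher, and they were H4 AT3G46320 and AT5G59970, H3.1 AT1G09200 and AT5G10400, HTA6 and HTA11. H3.1 AT1G09200 had 28.0 and 25.8 TMM-CPM at T8 and 53.1 and 120.0 TMM-CPM at T6, against 126 and 73.9 TMM-CPM at T11 and 57.0 and 66.0 TMM-CPM at T9, an interaction of -2.39 ± 0.50 on the log2 scale (adjusted p = 0.0346). In this gene the T8 plates were the lowest and the T11 plates did not lie below T9. Without the batch term none of the 39 passed, nor without the batch 2 plate of T6, the batch 1 plate of T8 or T11, or either plate of T9.

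Promoter motifs were set beside these changes as a description. At T4 against T9, 8 of the 10 genes with an octamer fell, with a median log2 change of -2.67, and 19 of the 29 without one, with a median of -1.64. At T8 against T11, 6 of 10 with and 16 of 29 without an octamer were lower, with medians of -1.05 and -1.03. All 8 H2B genes hold the hexamer, HTB4 that rose at T4 and the 7 that fell.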

How the data were processed

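The authors deposited whole-number read counts per gene for 43 libraries and 1 table of log2 values. Per the submitters' processing notes HTSeq, SAMtools, Bowtie2 2.1.0.0, TopHat2 2.0.14 and bcl2fastq 1.8.4 were used, with TAIR10. Their roles and settings are not given in the sources used here. Records naming no gene, 11.7% to 36.2% of a library's total in batch 1 and 14.8% to 45.3% in batch 2, were left out. The 2 tubes of a plate were summed, giving 22 plates; T3 in batch 1 had 1 tube. Counts were fitted with edgeR 4.0.16 (R 4.3.3, TMM scaling, filterByExpr with a minimum count of 10, quasi-likelihood test, time point and batch as terms, all plates in 1 fit), with p-values adjusted over all 20980 loci tested. Per the labels a replicate number names a tube within a batch, and each time point has 1 plate in each batch, so the batch term pairs plates by batch. Levels are CPM after TMM scaling, with 2 plates per time point. The authors' deposited log2 values (18864 loci, 1 column not used) were tested with limma 3.58.1 as an alternative, and DESeq2 1.42.0 was another, beside library size scaling, no filter, no batch term, compared plates only and leaving out each plate. The fit was tested on simulated data. Values in every plate were to be given for the member of each class with the largest change that passed with the same sign in both batches, for HIS1-3 and for the most abundant member of each class; other histone genes could be named in any comparison, and of the other lists up to 4 genes with the smallest adjusted p. The histone genes and the other gene lists were chosen with earlier results of these data known. Where the protocol text and the sampling temperatures disagreed on the order of T7 to T9, the temperature labels were used. Promoter and coding sequences were read from the RefSeq genome and annotation, TAIR10.1, in which all 39 loci matched, and proteins were translated from them.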

Additional observations from a re-analysis of the deposited data

Results flagged for a closer look

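Each of 6 histone genes changed differently to 2 days after the shock in acclimated leaves (T8 over T6) than in non-acclimated leaves (T11 over T9), by the interaction in edgeR's quasi-likelihood test over all loci. H4 AT3G46320 had an interaction of -2.20 ± 0.50 on the log2 scale (adjusted p = 0.0458) and H4 AT5G59970 of -2.21 ± 0.44 (adjusted p = 0.0326). H3.1 AT1G09200 had -2.39 ± 0.50 (adjusted p = 0.0346) and H3.1 AT5G10400 had -1.94 ± 0.39 (adjusted p = 0.0321). HTA6, the H2A.W gene AT5G59870, had -2.71 ± 0.61 (adjusted p = 0.0458), and HTA11, the H2A.Z gene AT3G54560, had -3.00 ± 0.65 (adjusted p = 0.0419). With 2 plates per time point, single plates could not be tested as outliers. None of the 6 passed without the batch term, in a fit of the compared plates alone, or without the batch 2 plate of T6, the batch 1 plate of T8 or of T11, or either plate of T9.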

How the results depend on the processing

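Library size scaling turned HTB4 to -0.037 at T3 over T1 and to -0.099 at T4 over T1 on the log2 scale, and, at T4 over T9, AT5G10980 to -1.56 and HTA7 to -1.14. The median of all loci moved as well, and the cause was not tested further. Under it 37 of the 39 genes were lower and none higher at T3 over T1 and at T4 over T9, and 38 and none at T4 over T1. It also called 15 at T7 over T6, 16 at T10 over T9, 12 at T8 over T11, 1 in the recovery interaction and 38 at T4 over T10. Without the replicate block, 0 were called at T2 over T1, T7 over T6, T10 over T9, T11 over T9 and in the recovery interaction, and 4 at T8 over T6. With the compared plates only, 4 were called at T2 over T1, 6 at T8 over T6, and 0 at T7 over T6, T10 over T9, T11 over T9, T8 over T11, T9 over T1 and in the recovery interaction. On the authors' deposited log2 values 32 were called at T4 over T9 and 24, all lower, at T4 over T10. DESeq2 called 20 at T8 over T6, 15 in the recovery interaction, and 2 each at T11 over T9 and T9 over T1. Without the filter on low counts 2 were called at T7 over T6. Leaving out 1 plate gave 0 calls at T2 over T1, 21 to 27 at T3 over T1, 21 to 27 at T4 over T1, 24 to 29 at T4 over T9 and 17 to 23 at T4 over T10. It gave 0 to 3 at T7 over T6, 0 to 2 at T10 over T9, 0 to 8 at T8 over T6, 0 to 3 at T11 over T9, 6 to 24 at T8 over T11, 1 to 2 at T9 over T1 and 0 to 9 in the recovery interaction. Where 1 plate was left, it was assumed to vary like the other time points. At T5 and T6 over T9 and in the shock interaction 0 were called under every setting run. With 2 plates per time point, small changes may have gone undetected.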
